A study of Homo sapiens with 2 samples.

Results

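The OAS and IFIT families were examined in FaDu cells with and without GLUT4 overexpression, through every probe set whose annotation names only OAS1, OAS2, OAS3, OASL, IFIT1, IFIT2, IFIT3 or IFIT5. This gave 16 probe sets of the 54675 on the array and 8 genes of the 19775 measured, with 9 probe sets in the OAS family and 7 in the IFIT family. FaDu is a human squamous cancer line that was derived from a tumour of the pharynx. Cells stably expressing GLUT4 and cells carrying the control vector, both transduced with lentivirus and selected with puromycin, gave 1 array each (Affymetrix Human Genome U133 Plus 2.0), and the methods call the selected cells stable clones without saying how many clones a line held. The study set these arrays side by side to look for genes and upstream regulators that respond to the GLUT4 glucose transporter. All values here are normalized intensities, and each difference is GLUT4 minus vector on the log2 scale. Since each group had 1 array, no replicate check and no test could be made, and a difference covers every way in which these cell populations differed.

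The median intensity of all probe sets was 39.1 on the GLUT4 array and 39.7 on the vector array. SLC2A4, the gene of GLUT4, read 32.6 on the GLUT4 array and 28.3 on the vector array (log2 difference 0.20). It is not known here whether this probe set can detect the introduced sequence. The study reports overexpression of GLUT4 protein in FaDu cells by western blot. Of 9 markers of squamous epithelium, 6 were analysed here and all lay above the median signal, with KRT5, a basal keratin, at 13093 on the GLUT4 array and 11024 on the vector array. Of these 6, the keratin KRT14 was 2.03-fold higher and the adhesion molecule EPCAM 1.77-fold lower. The defining leukocyte marker PTPRC was near the lower end of the scale, at 8.14 on the GLUT4 array and 8.30 on the vector array. Of 10 leukocyte markers, 4 lay above the median signal, and their summed intensity was 405 on the GLUT4 array and 529 on the vector array, with CD14, a monocyte receptor that epithelial cells can also express, 1.76-fold lower (143 with GLUT4, 251 with the vector). The 7 markers of fibroblasts and endothelium summed to 1474 on the GLUT4 array and 982 on the vector array. The proteoglycan DCN was the largest part of both sums (1050 with GLUT4, 482 with the vector, 2.18-fold higher). The adhesion molecule PECAM1 was 2.92-fold lower, and COL1A1, COL1A2, PDGFRB, VWF and CDH5 were within 1.5-fold on their brightest probe sets. Both populations were cultures of the FaDu line, and the methods name no leukocytes, fibroblasts or endothelium in them. Whether the mix of cells differed was not tested, and in bulk RNA fewer cells of a type and less RNA per cell cannot be told apart. The spread between probe sets of a gene was the only measure of error here, taken from genes with several probe sets. Both probe sets of a pair were read on the same arrays, so error that they share is not in it. Variation between cultures is not in it either. Over 10523 such genes, the differences of the brightest pair lay apart with an SD of 0.29, or 0.20 when divided over its members.

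Both families belong to the antiviral genes that interferons induce, and several of their members can also be induced directly by IRF factors when a cell senses viral RNA. OAS1, OAS2 and OAS3 are enzymes that bind double-stranded RNA and make short oligoadenylates, which switch on a latent endoribonuclease that degrades cellular and viral RNA. OASL has the same fold without the enzyme activity and carries ubiquitin-like domains, through which it promotes signalling by the RNA sensor RIG-I. The IFIT proteins are built of tetratricopeptide repeats and bind RNA. IFIT1 recognizes viral RNA whose cap lacks a methyl mark, IFIT2 and IFIT3 form complexes with it, and IFIT5 binds RNA with a triphosphate end.

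On the GLUT4 array, 7 of the 16 probe sets were at least 1.5-fold lower than on the vector array, and none was at least 1.5-fold higher. Of all 54675 probe sets, 1.22% were at least 1.5-fold lower and 2.04% at least 1.5-fold higher. In all, 13 of the 16 lay below 0, against 51.5% of all probe sets. Counted with 1 value per gene (its brightest probe set), 4 of the 8 genes were at least 1.5-fold lower (OASL, IFIT1, IFIT2 and IFIT3), against 1.54% of all genes, and none was at least 1.5-fold higher, against 1.84%. OASL and IFIT2 were also past 2-fold, against 0.314% of all genes. On these brightest probe sets, the members within each family were not alike. The 3 OAS enzymes stayed within 1.5-fold and OASL did not, though the dimmer OAS1 probe set, 202869_at, was 1.89-fold lower. Among the IFIT genes, 3 of the 4 were past 1.5-fold and IFIT5 was on the other side of 0. The median over the 4 OAS genes was -0.30 (between -1.57 and -0.24). That over the 4 IFIT genes was -0.96 (between -1.32 and 0.18), and these ranges overlap. The median over all genes was -0.02.

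**Figure D1:**
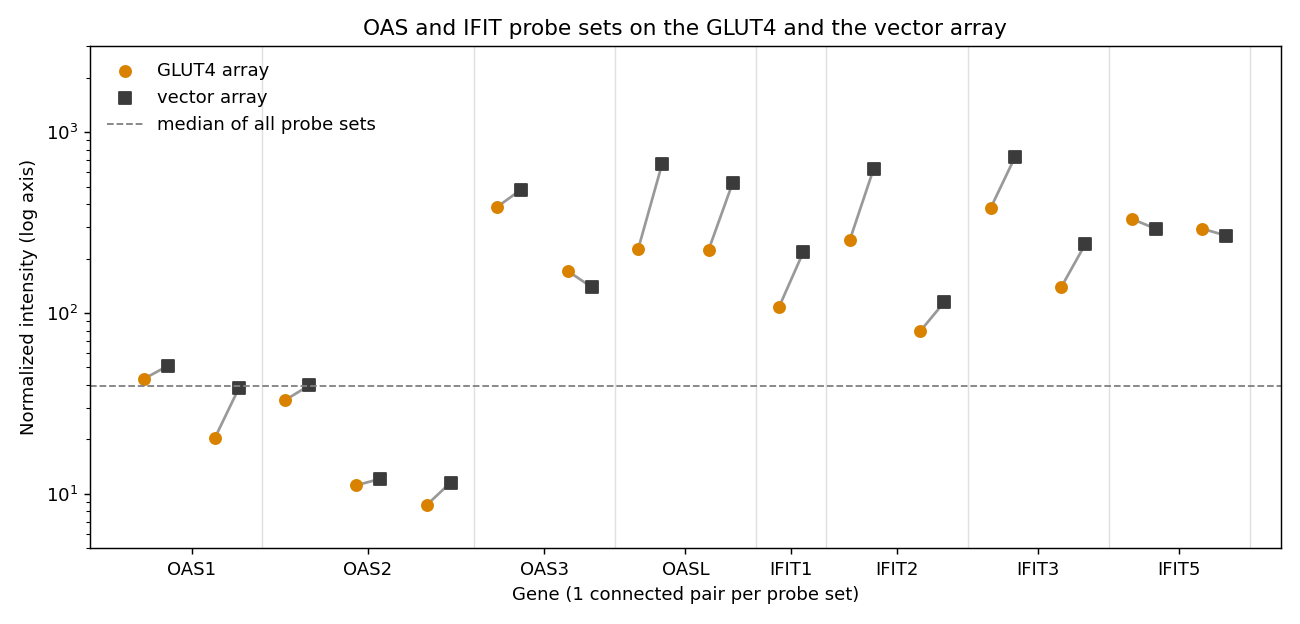
Normalized intensity (log axis) of each of the 16 probe sets on the GLUT4 array (orange circles) and the vector array (black squares), joined by a line per probe set and grouped by gene, with the brightest probe set of a gene first. The lines of OASL, IFIT1, IFIT2 and IFIT3 climb towards the vector array, those of IFIT5 slope slightly the other way, and the dashed line marks 39.3, the median signal of all probe sets.

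The OAS genes are given first with their promoter sequences, since the members share a mode of induction that acts on the promoter. The motif searched on both strands was GAAANNGAA, part of the core of the interferon-stimulated response element (ISRE), together with the shorter spacing GAAANGAAA. These letters were chosen after the sequences had been seen. RefSeq promoter sequences (GRCh38.p14) were matched for 5 of the 8 genes and not for OAS2, OASL and IFIT2. The 250 bases before the start of transcription were read. Matches are in capitals, adjoining or overlapping matches form 1 run, and the sequences run 5′ to 3′ on the plus strand, OAS1 at chr12:112906712-112906961 and OAS3 at chr12:112938224-112938473.
OAS1: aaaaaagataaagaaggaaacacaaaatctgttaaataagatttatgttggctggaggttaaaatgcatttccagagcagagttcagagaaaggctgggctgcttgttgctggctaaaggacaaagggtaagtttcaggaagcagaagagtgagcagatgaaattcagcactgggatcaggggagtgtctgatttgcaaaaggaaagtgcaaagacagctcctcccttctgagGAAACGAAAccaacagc
OAS3: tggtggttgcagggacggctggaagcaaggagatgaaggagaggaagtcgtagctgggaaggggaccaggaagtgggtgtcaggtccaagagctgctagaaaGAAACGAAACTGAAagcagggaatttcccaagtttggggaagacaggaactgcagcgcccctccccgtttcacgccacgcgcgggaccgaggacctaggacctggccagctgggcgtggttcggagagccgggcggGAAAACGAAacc
The OAS1 window held 1 match to the shorter spacing, 17 to 9 bases before the start, and none to GAAANNGAA. The OAS3 window held 2 matches to GAAANNGAA, 143 to 135 and 12 to 4 bases before the start, and 1 to the shorter spacing that overlaps the first of them. Of 35116 promoter windows of this length, 6.88% held GAAANNGAA and 0.567% held it at 2 or more places, and 2.69% held GAAANGAAA. A match is a run of letters and not a measured binding site.

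OASL differed most of the 8 genes. Its brighter probe set, 205660_at, read 226 on the GLUT4 array and 669 on the vector array, which is 2.96-fold lower (log2 difference -1.57). The other, 210797_s_at, read 224 on the GLUT4 array and 524 on the vector array, which is 2.34-fold lower (-1.23). The gap of 0.34 between the OASL probe sets is above 0.29, the SD over all such pairs, and above the 0.23 of the third with the highest signal. Counted from the lowest difference, they stood at ranks 17 and 56 of the 54675 probe sets.

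The enzymes OAS1, OAS2 and OAS3 gave smaller and less even differences. OAS3, which has 3 copies of the synthetase unit in its protein, read 386 with GLUT4 and 481 with the vector on its brighter probe set (218400_at, log2 difference -0.32). Its other probe set, 232666_at, read 171 with GLUT4 and 139 with the vector, a difference of the opposite sign (0.30). The gap of 0.62 between them is 2.14 times the SD for such pairs, and the mean of both was -0.01, so OAS3 had no settled direction. OAS1 lay below 0 on both of its probe sets but passed 1.5-fold on the dimmer alone. The brighter, 205552_s_at, read 43.4 with GLUT4 and 51.2 with the vector (-0.24), and the dimmer, 202869_at, read 20.4 with GLUT4 and 38.5 with the vector (-0.91). The annotation pairs the OAS1 probe sets with different transcript records, and the signal of 202869_at lay below the median signal on both arrays. After 32 was added to all intensities, a step that shrinks the differences of dim probe sets, its difference was -0.43, within 1.5-fold. OAS2 was dim throughout. Its probe sets read 33.0, 11.1 and 8.65 on the GLUT4 array and 39.9, 12.1 and 11.5 on the vector array, in the order 206553_at, 228607_at and 204972_at. Their differences were -0.27, -0.12 and -0.41, all below 0 and all within 1.5-fold.

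The IFIT promoters are shown because IFIT1, IFIT3 and IFIT5 lie in 1 cluster on chromosome 10. IFIT1 and IFIT3 were lower with GLUT4, while IFIT5 was at similar levels on both arrays. The windows are the 250 bases before the start, on the plus strand, IFIT1 at chr10:89392373-89392622, IFIT3 at chr10:89327747-89327996 and IFIT5 at chr10:89414318-89414567, with matches in capitals as above.
IFIT1: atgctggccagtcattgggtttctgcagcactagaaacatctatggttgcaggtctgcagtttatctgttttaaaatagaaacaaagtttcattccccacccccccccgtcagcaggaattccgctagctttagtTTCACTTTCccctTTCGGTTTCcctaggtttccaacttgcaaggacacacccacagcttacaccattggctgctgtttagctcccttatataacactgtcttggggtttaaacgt
IFIT3: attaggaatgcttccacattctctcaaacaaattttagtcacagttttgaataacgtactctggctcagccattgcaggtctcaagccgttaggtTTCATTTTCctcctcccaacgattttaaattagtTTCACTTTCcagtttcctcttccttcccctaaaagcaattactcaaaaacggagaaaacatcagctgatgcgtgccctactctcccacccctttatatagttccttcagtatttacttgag
IFIT5: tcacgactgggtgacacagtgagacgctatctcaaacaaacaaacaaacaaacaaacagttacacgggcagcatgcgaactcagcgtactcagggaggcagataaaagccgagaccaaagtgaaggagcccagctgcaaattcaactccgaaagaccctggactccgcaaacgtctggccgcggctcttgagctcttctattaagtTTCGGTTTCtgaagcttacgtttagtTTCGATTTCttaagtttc
Each of these windows held 2 matches to the GAAANNGAA motif, here on the reverse strand as TTCNNTTTC. In IFIT1 they lay 115 to 107 and 102 to 94 bases before the start, in IFIT3 155 to 147 and 121 to 113, and in IFIT5 44 to 36 and 18 to 10. The pair of matches was found in front of IFIT5 as well as in front of IFIT1 and IFIT3, and its part in their values was not tested. No window was available for IFIT2. A further IFIT3 window, at another start of the gene, held 3 matches to it.

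IFIT2 and IFIT3 were the IFIT genes with several probe sets and lower values. IFIT2 read 253 on the GLUT4 array and 629 on the vector array on its brighter probe set, 226757_at, which is 2.49-fold lower (log2 difference -1.32). Its dimmer probe set, 217502_at, read 79.4 with GLUT4 and 115 with the vector, 1.45-fold lower (-0.53) and just inside the 1.5-fold line. The gap of 0.78 is 2.72 times the SD for such pairs, so the size of the IFIT2 difference depends on the probe set, while its sign did not. IFIT3, which stabilizes the complex with IFIT1, gave closer values. On 229450_at it read 382 with GLUT4 and 725 with the vector (1.90-fold lower, -0.92), and on 204747_at it read 139 with GLUT4 and 241 with the vector (1.73-fold lower, -0.79). The gap of 0.13 between them is smaller than the SD for such pairs. IFIT1 has a lone probe set, 203153_at, which read 108 on the GLUT4 array and 217 on the vector array. Its log2 difference of -0.997 lies just short of 2-fold and has no further probe set beside it. IFIT5 was at similar levels on both arrays. Its probe sets read 331 and 292 on the GLUT4 array and 292 and 268 on the vector array (203595_s_at and 203596_s_at), with differences of 0.18 and 0.13. Both are below 0.20, the SD of a single probe set over all such genes, but 0.18 is above the 0.16 of the third with the highest signal.

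**Figure D2:**
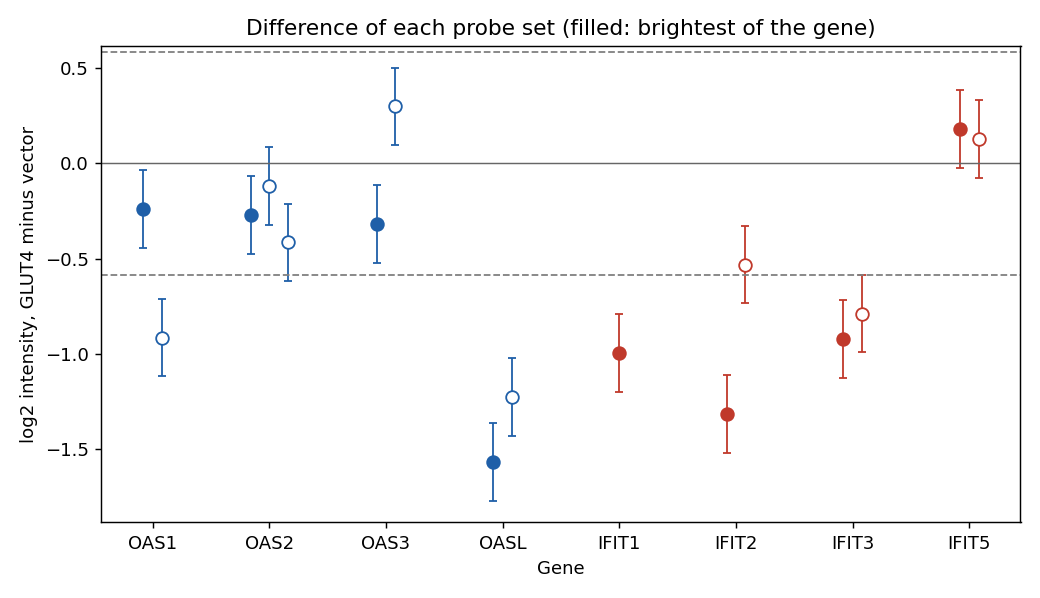
Log2 difference (GLUT4 minus vector, vertical axis) for each probe set of the 8 genes (blue OAS, red IFIT, filled for the brightest probe set of a gene), with dashed lines at 1.5-fold and bars of ± 0.20, the SD of a single probe set, which cover no variation between cultures. The probe sets of OASL, IFIT1 and IFIT3 lie below the lower dashed line, those of IFIT5 just above 0, and those of OAS3 on both sides of 0.

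Within each family, members were compared by the gap between their log2 differences, set beside 0.58, which is 2 times the SD of the gap within a gene. Among the 6 pairs of OAS genes, the 3 that include OASL had larger gaps. OASL lay 1.33 below OAS1, 1.29 below OAS2 and 1.25 below OAS3, and the enzymes lay within 0.08 of each other on their brightest probe sets. Among the 6 pairs of IFIT genes, the 3 that include IFIT5 had larger gaps. IFIT5 lay 1.497 above IFIT2, 1.18 above IFIT1 and 1.10 above IFIT3. IFIT1, IFIT2 and IFIT3 lay within 0.39 of each other, so that their order from IFIT2 (-1.32) through IFIT1 (-0.997) to IFIT3 (-0.92) is not separated by the spread between probe sets. With each gene's probe sets averaged, the pairs past 0.58 were the same in both families, but the enzymes lay farther apart, at 0.31 between OAS1 and OAS2, 0.57 between OAS1 and OAS3 and 0.26 between OAS2 and OAS3. By single probe sets, all 10 pairings of an IFIT5 probe set with another IFIT probe set were past 0.58, the nearest being 203596_s_at and the IFIT2 probe set 217502_at at 0.66. Of the 14 pairings of an OASL probe set with another OAS probe set, 13 were past it, and the exception was 210797_s_at with the OAS1 probe set 202869_at at 0.31. OASL and IFIT5 were taken for these pairings because they stood apart. The pairings reuse the 2 probe sets of each, so their counts are not separate observations. Of the 10523 genes with several probe sets, 5.05% had a gap of at least 1.5-fold within the brightest pair. The share for pairs of unrelated genes is not given here. These gaps describe this pair of arrays and are no test between genes.

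**Figure D3:**
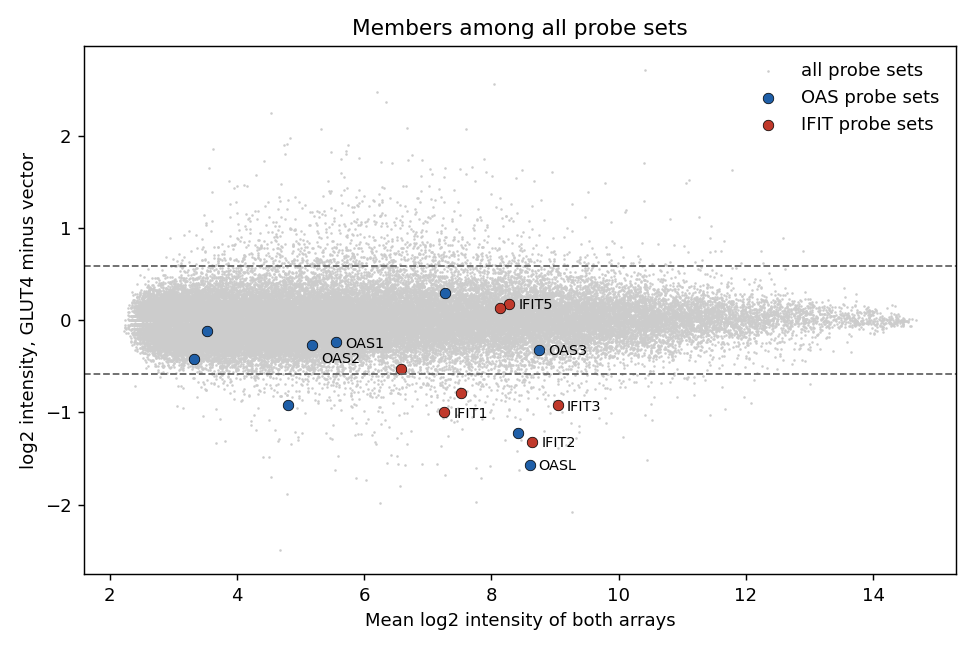
Log2 difference (GLUT4 minus vector, vertical axis) by mean log2 intensity (horizontal axis) for all 54675 probe sets (grey), with OAS probe sets in blue and IFIT probe sets in red, names at each gene's brightest probe set and dashed lines at 1.5-fold. OASL, IFIT2, IFIT1 and IFIT3 lie at the lower edge of the grey points, and OAS1, OAS2, OAS3 and IFIT5 lie within them.

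The position of the genes was described next, since OAS1, OAS3 and OAS2 stand in a row on chromosome 12, OASL lies elsewhere on the same chromosome, and the IFIT genes form a cluster on chromosome 10. The 3 nearest measured protein-coding genes on each side of the 3 sites gave 18 neighbours. None of these was past 1.5-fold, and their differences ran between -0.56 and 0.23 with a median of -0.09. Over all genes, 1.54% were at least 1.5-fold lower and 1.84% at least 1.5-fold higher, so none among 18 is near these shares. Next to OASL, the signal peptide peptidase SPPL3 was at -0.15 and the purinergic receptor P2RX7 at 0.21. P2RX4, the next receptor gene after P2RX7, had the lowest difference of the neighbours at -0.56 (193 with GLUT4, 284 with the vector), 1.47-fold lower. Beside the IFIT cluster, the lysosomal lipase LIPA was at -0.30 on the side of IFIT2, and PANK1, a kinase of coenzyme A synthesis, was at -0.47 on the side of IFIT5 (217 with GLUT4, 301 with the vector). IFIT5, with its difference of 0.18, thus stood between IFIT1 at -0.997 and PANK1 at -0.47. Beside the OAS enzymes, the differences of RPH3A, a vesicle protein, and DTX1, a regulator of Notch signalling, were -0.02 and -0.13.

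**Figure D4:**
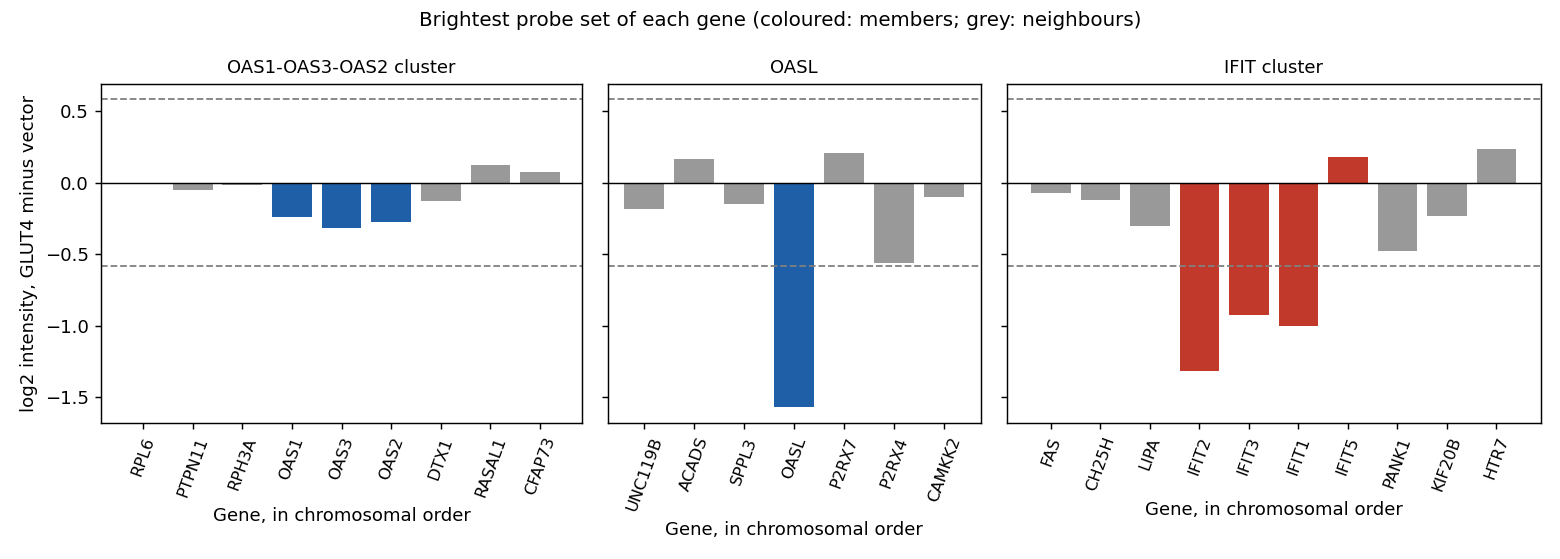
Log2 difference (GLUT4 minus vector, vertical axis) on each gene's brightest probe set (bars), in chromosomal order, for the OAS1-OAS3-OAS2 cluster, OASL and the IFIT cluster (coloured) with 3 measured neighbours on each side (grey). Dashed lines mark 1.5-fold, and of the 26 bars those past it are OASL, IFIT2, IFIT3 and IFIT1.

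The genes that induce both families and those that act with them were then taken from lists. Over all genes, 1.54% were at least 1.5-fold lower and 1.84% at least 1.5-fold higher. For lists as short as those below, having none past 1.5-fold is near these shares. Of 15 genes of interferon receptors, kinases and transcription factors, 13 were analysed here. None was past 1.5-fold on its brightest probe set, with a median of 0.04. IRF9, the DNA-binding part of the complex that acts on ISRE sequences, was at -0.07 (147 with GLUT4, 154 with the vector). IRF7, an interferon-inducible regulator, was lowest at -0.36, and IRF3 was at 0.05. The receptor subunit IFNAR1 was at -0.25 on its brightest probe set, but its 4 probe sets ran between -0.40 and 0.46 with a mean of -0.06. IRF1 was at -0.14 on its brightest probe set and at -0.78 on the other. Of 7 genes that act beside the OAS enzymes, 6 were analysed and none was past 1.5-fold, with a median of 0.05. PDE12, which degrades oligoadenylates, was at 0.05, and ABCE1, an inhibitor of the endoribonuclease, was at 0.02. The RNA-activated kinase EIF2AK2 was at 0.09 on its brightest probe set, but its 3 probe sets ran between -0.20 and 0.09 with a mean of -0.10. Of 10 genes of cap synthesis and IFIT partners, 9 were analysed and none was past 1.5-fold, with a median of 0.01. CMTR1 and CMTR2, which methylate the cap that IFIT1 then does not bind, were at 0.06 and 0.20, and the translation factor subunit EIF3E, a partner of IFIT1 and IFIT2, was at 0.01.

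Other interferon-stimulated genes shared the direction of OASL and of IFIT1, IFIT2 and IFIT3 in part. Of 37 such genes, 10 were at least 1.5-fold lower, none was at least 1.5-fold higher and 33 lay below 0, against 1.54% of all genes at least 1.5-fold lower and 52.2% below 0. Their median was -0.38, and -0.23 with each gene's probe sets averaged. HERC5, the ligase for ISG15, was at -1.34, the helicase DDX60 at -1.32, RIGI, the sensor that OASL acts on, at -1.27 and IFIH1, a related sensor, at -1.18. The probe sets of both sensors lay on both sides of 0. Those of RIGI ran between -1.59 and 0.13 with a mean of -0.91, and those of IFIH1 between -1.18 and 0.38 with a mean of -0.30, within 1.5-fold. LAMP3, a lysosomal membrane protein, was at -0.95 and IFITM1, a block to viral entry, at -0.75. In contrast, IFI27, a mitochondrial protein, and IFI16, a DNA sensor, were each at -0.01, and the helicase DHX58 was at -0.02. With the offset of 32, 5 of the 37 in place of 10 were at least 1.5-fold lower. This list was written with earlier results of these arrays known, and its direction is no independent support for that of the OAS and IFIT genes.

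**Figure D5:**
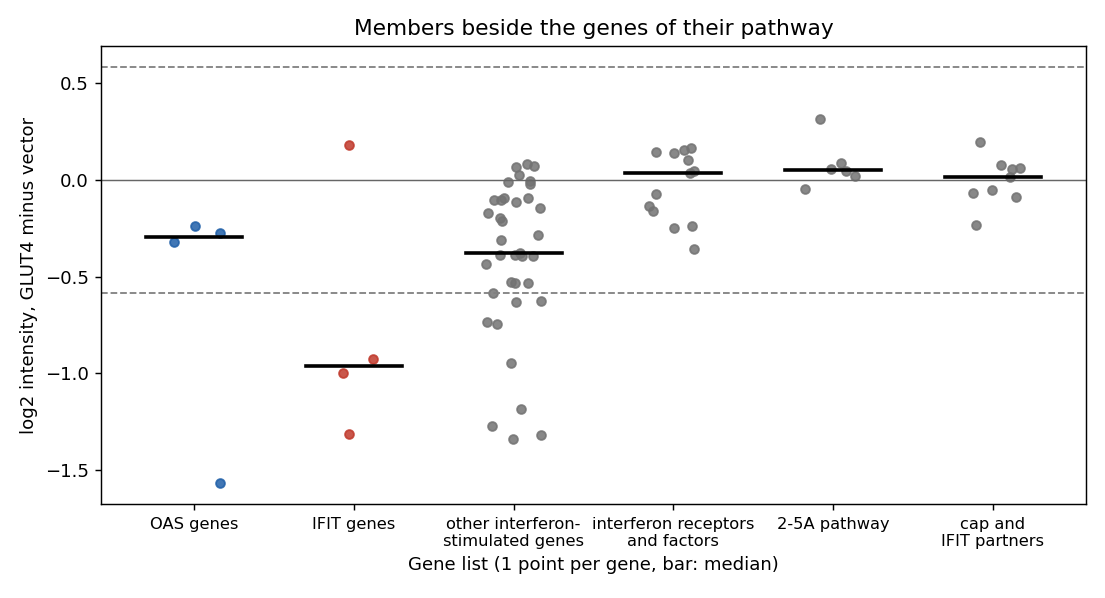
Log2 difference (GLUT4 minus vector, vertical axis) on each gene's brightest probe set (points) for the OAS genes, the IFIT genes and the lists of related genes (2-5A pathway: genes that act beside the OAS enzymes), with a bar at each median and dashed lines at 1.5-fold. Points past the lower dashed line are OASL, 3 IFIT genes and 10 other interferon-stimulated genes, and the remaining lists lie between -0.36 and 0.31.

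Genes with the most similar values were sought for OASL and IFIT2 among genes whose mean log2 intensity lay within 1 of theirs, by the gap between the log2 differences. Likeness over 2 arrays is a single number per gene. For OASL, 3864 genes were in range and 4 of these were as low or lower, and the nearest were IGFL1 (-1.60), KLHL28 (-1.71) and the actin-bundling protein PLS1 (-1.42). For IFIT2, 3874 genes were in range and 8 were as low or lower, and the nearest were the helicase DDX60 (-1.32), TMCC1 (-1.30) and the matrix protein LTBP2 (-1.35). DDX60 is an interferon-stimulated gene of the list above, and the other genes named here are on none of the lists.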

How the data were processed

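Total RNA of 2 cell populations was labelled with a kit that starts from the end of the transcript. The authors deposited normalized intensity values on a linear scale. Per the methods, GeneSpring was used and levels were normalized as log2 values. MAS5 is named in the submitters' processing notes, without a version, and the sources used here do not tell how these steps were joined. Sorted log2 values of the arrays differed by at most 0.15, so the files hold values already normalized between arrays. Detection calls were not used.

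Values under 1 were raised to 1 before taking log2, and differences are GLUT4 minus vector. Of 54675 probe sets, 41097 named 1 gene, 1801 several and 11777 none here. Each gene was represented by its brightest probe set (mean log2 of both arrays). Symbols were updated to RefSeq (GRCh38.p14). Some listed genes are not reported here. The fold threshold of 1.5 is that of the methods. With 1 array per group no test was run, and precision is limited by the number of arrays. The calculation was tested on simulated data. Members and lists were chosen with earlier results of these data known. Named were all members, list genes past 1.5-fold (at most 6) or nearest to 0 (at most 3), the neighbours and the genes most similar to OASL and IFIT2. IFNAR1, IRF9, IRF7, IRF3, IRF1 and the examples within 1.5-fold were chosen for their role after their values were seen. Alternatives were a filter at the median signal, equal medians, quantile normalization, a loess fit (fraction 0.3), 32 added to all intensities, no x_at or s_at probe sets, and the mean over probe sets. Python 3.11.15, numpy 2.4.6, pandas 2.3.3, statsmodels 0.14.6 and matplotlib 3.10.9 were used.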

Additional observations from a re-analysis of the deposited data

How the results depend on the processing

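The results recomputed were those of the member probe sets and genes, the family medians and counts, and the counts over all features. The medians and counts of the lists other than markers were recomputed too. Markers, neighbours, similar genes, the spread between probe sets and single list genes were not. Equal medians, quantile normalization and the loess fit moved none of the recomputed results by more than 0.20 on the log2 scale, or by over 1.5 times for a count. Neither did the filter at the median signal, which removed OAS2. Without probe sets ending in x_at or s_at, OAS1 was at -0.91, the median of the OAS genes at -0.62 with 2 genes at least 1.5-fold lower, and the median of the genes acting beside the OAS enzymes at -0.17, and IFIT5 had no value. With the mean over all probe sets, OAS1 was at -0.58, OAS3 at -0.0094 and IFIT2 at -0.92, and 186 genes in place of 304 were at least 1.5-fold lower. With the offset of 32, 5 other interferon-stimulated genes were at least 1.5-fold lower, as were 6 member probe sets in place of 7. The dimmer OAS1 probe set fell within 1.5-fold, and the OAS2 probe set 204972_at was at -0.10 in place of -0.41. Over all features, 289 probe sets in place of 665 and 168 genes in place of 304 were at least 1.5-fold lower. At the same time, 477 probe sets in place of 1117 and 205 genes in place of 363 were at least 1.5-fold higher. The alternatives reversed no recomputed difference past 1.5-fold. No paired analysis was possible because each group had 1 array, and no array could be left out. Signal limits OAS2 and the dimmer OAS1 probe set, which lie near or below the median of the arrays.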
